A study of Mus musculus with 8 samples.

Results

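The genes of the SR proteins (Srsf symbols) and of the heterogeneous nuclear ribonucleoproteins (Hnrnp symbols), 2 large families of splicing factors, were followed in mouse CD8+ T cells. Members were all genes whose symbol was Srsf plus a number, or Hnrnp plus letters or digits alone. Their normalised read count also had to be at least 10 in at least 2 libraries. This gave 31 genes, 11 SR and 20 hnRNP, the same 31 in both experiments, of 15415 genes tested in the first experiment and 13978 in the second. All listed genes with such symbols passed the minimum. Symbols with a hyphen, such as that of the pseudogene Hnrnpa1l2-ps, were outside the rule. The rule used symbols and a minimum level, not the response to either condition, but it was set with earlier results of these data known. All 31 are protein-coding genes.

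The cells came from spleens and lymph nodes and were profiled by polyA RNA sequencing in 2 experiments of 4 libraries each. The first compared Trim28-/- cells (2 libraries, labelled TRIM28 knockout) with Trim28fl/fl cells (2 libraries, labelled WT) after activation in vitro, to find genes regulated by TRIM28, a co-repressor of transcription. The second compared cells given an antibody against IL-2 (2 libraries) with untreated cells (2 libraries), all WT and all kept 3 days with anti-CD3 and anti-CD28, to find genes regulated by the growth factor IL-2. The blocked libraries are called A and B because their columns carry no replicate numbers. The Cre driver that removed Trim28, the strain, and the age of the mice are not given in the sources used here, nor is the activating stimulus of the first experiment. Nothing in the labels tells whether a group's libraries are independent mice or cultures, so the p-values reflect the spread between libraries alone, and that spread can be technical.

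SR proteins carry RNA-binding domains and a tail rich in arginine and serine. They bind exons and recruit the spliceosome, so they mostly promote the inclusion of the exons they bind, and kinases of the SRPK and CLK families control them by phosphorylation. The hnRNP proteins coat nascent transcripts and often act against SR proteins by silencing exons, and many also serve in RNA export, stability and translation. In T cells, hnRNP L and the related hnRNP LL are known for directing the skipping of the variable exons of CD45 after activation. Many SR and hnRNP genes also hold exons whose inclusion sends the mRNA to nonsense-mediated decay. In the GENCODE annotation, 61.3% of the 31 genes had a transcript annotated as a decay target, against 29.6% of the protein-coding genes tested in the knockout experiment. Gene-level reads do not separate such transcripts from the productive ones.

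Each library held 13222831 to 17069569 recovered reads, and values below are normalised read counts, that is, reads divided by the authors' size factor for the library. The knockout libraries had 415 and 458 for Trim28 against 4262 and 4323 in the control. Under anti-IL-2 Trim28 was higher, at 7926 and 8528.5 against 5774 and 5920 in untreated libraries (log2 fold change 0.49, SE 0.051). Gzmb, which encodes the cytotoxic protease granzyme B, went from 26683 and 25898 to 405 and 415 under anti-IL-2. Cd8a lay between 4154 and 7217 in every library, and Cd4 lay between 0 and 9.55. The blocked libraries A and B differed more from each other than the libraries of any other group. Over the 31 genes (in the knockout, the 30 with at least 20 reads) the median chi-square of their reads was 10.2 per gene in blocked cells. It was 0.34, 0.85 and 0.59 in control, knockout and untreated cells. Of the 31, 25 were higher in A than in B relative to depth. Over all genes with at least 20 reads the medians were 1.05 in blocked and 0.39, 0.40 and 0.55 in control, knockout and untreated cells. Sampling alone gives 0.45. A chi-square of this kind grows with the reads of a gene, and most of the 31 are highly expressed. In bulk RNA, fewer cells of a type and less RNA per cell cannot be told apart.

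The 31 genes together took 1.05% and 1.06% of all reads in the control libraries and 1.19% and 1.19% in the knockout. In the second experiment they took 1.18% and 1.18% in untreated cells and 1.5% and 1.41% in blocked cells. Both treated groups lay above their reference groups without overlap. Divided by exon length, Hnrnpab, an RNA-binding protein that also binds DNA, had the highest level in all 4 groups, with 4123 ± 15.9 per kilobase in the control and 5359 ± 8.63 in untreated cells (SD, n = 2). Srsf2, an activator of exon inclusion, came next in control, knockout and untreated cells, at 2532 ± 24.0 and 3482 ± 73.5 per kilobase in the reference groups, and under blockade Hnrnpa2b1 passed it. Srsf12 was the lowest in all 4 groups, at 4.99 ± 0.23 per kilobase in the control, and Hnrnpr, the longest of them in exon sequence, was next to it. The 2 tables were scaled separately, so levels are compared here only within an experiment.

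Loss of Trim28 raised most of these splicing factors by small amounts. Of 31 genes, 20 were called higher and 8 lower at a limma adjusted p under 0.05, and 3 were not called. The background was high: 61% of all 15415 genes were called, 32.9% higher and 28.2% lower. The median log2 fold change of the 31 was 0.25, against 0.031 over all genes tested. Among 3336 other genes with a mean of at least 1000, 41.5% were called higher and the median was 0.030, while 18 of the 27 members at that level were called higher. Hnrnpd and Hnrnpll rose by more than 1.5-fold, and 0 genes reached 2-fold. The 8 lower include Srsf12, which passed the minimum there only through the control libraries, where it is high, so its call adds no support. Without knockout replicate 1, the library with the low Hnrnpa3 described below, 16 were called higher and 5 lower. The hnRNP genes had 14 higher and 4 lower of 20, and the SR genes 6 higher and 4 lower of 11.

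Blocking IL-2 gave a similar picture with fewer falls. Here 20 genes were called higher, 3 lower and 8 not called, with 60.3% of all 13978 genes called, 31.4% higher and 28.9% lower. The median log2 fold change was again 0.25, against 0.018 over all genes. Among 4106 other genes with a mean of at least 1000 the share called higher was 38.3%, and 16 of the 24 members at that level were called higher. With 1 library left out the median was 0.21 to 0.27, lowest without blocked library A, and fewer were called higher without either untreated library. Without the filter on low values, 14 were called higher and 2 lower. The hnRNP genes had 15 higher and 1 lower of 20, and the SR genes 5 higher and 2 lower of 11. Hnrnpll rose by more than 2-fold and Hnrnpl and Hnrnpd by more than 1.5-fold.

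**Figure D1:**
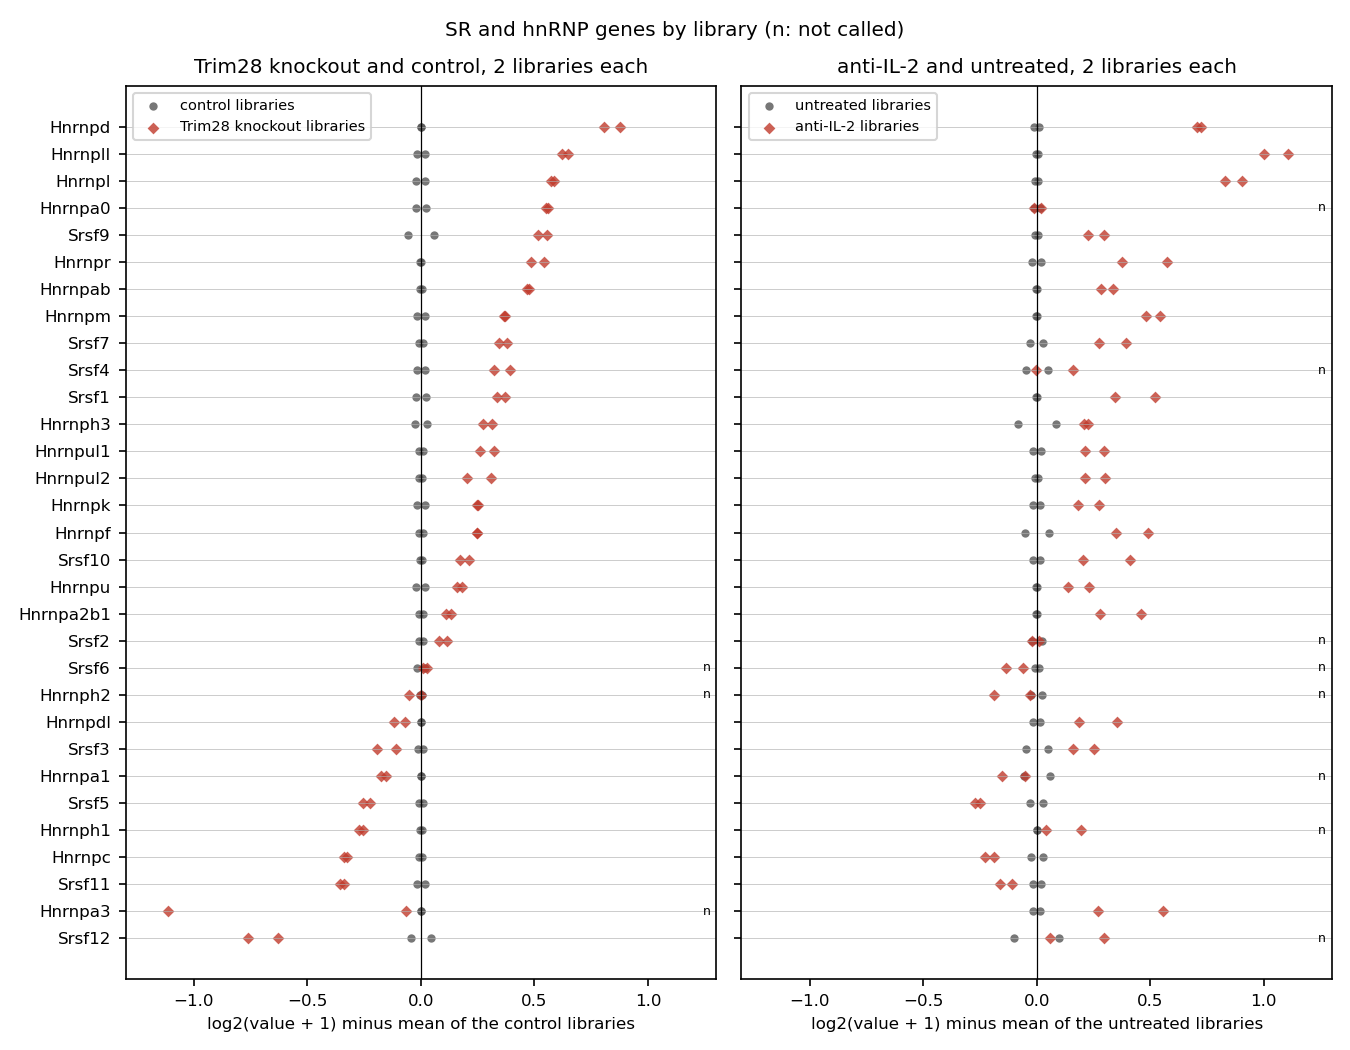
Each library's log2(normalised read count + 1) for the 31 genes, drawn as the difference from the mean of the 2 reference libraries, for Trim28 knockout and control (left) and anti-IL-2 and untreated (right); n marks genes not called. Most treated libraries (diamonds) lie to the right of the reference libraries (circles), and the 2 knockout libraries of Hnrnpa3 lie far apart.

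The paralogues hnRNP L and hnRNP LL, the regulators of CD45 exon skipping, rose in every treated library of both experiments. Hnrnpll had 981 and 1005 in control libraries and 1554 and 1526 in the knockout, and it had 2127 and 2116 in untreated against 4570 and 4244 in blocked cells. Hnrnpl had 3741 and 3848 against 5652 and 5695 in the first experiment, and 4358 and 4318 against 7706 and 8109 in the second. For both genes the groups stood apart in both experiments. Hnrnpll rose 1.55-fold in the knockout (log2 fold change 0.63, SE 0.035, limma adjusted p = 5.19e-05) and 2.07-fold with blockade (1.05, SE 0.053, limma adjusted p = 3.14e-12). Hnrnpl rose 1.495-fold (0.58, SE 0.027) and 1.82-fold (0.87, SE 0.049). Both rose more under blockade than in the knockout: the difference between the 2 effects was -0.42 for Hnrnpll (95% interval -0.56 to -0.28, limma adjusted p = 0.000213) and -0.29 for Hnrnpl (-0.40 to -0.17, adjusted p = 0.00106). Per kilobase, Hnrnpl stayed above Hnrnpll in all 4 groups, at 637 against 85.0 in the control and 1328 against 377 under blockade. Gene-level values say nothing of the exons of CD45 itself.

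The hnRNP D family binds AU-rich elements in mRNAs and influences their stability. Hnrnpd, which encodes AUF1, had 1889 and 1885 in control and 3464 and 3296 in knockout libraries, and 3511 and 3452 in untreated against 5749 and 5674 in blocked cells. This was the largest rise of all 31 genes in the knockout, 1.79-fold (0.84, SE 0.035, limma adjusted p = 2.23e-05), and was 1.64-fold with blockade (0.71, SE 0.049, adjusted p = 2.76e-10). Its effects in the 2 experiments did not differ at the threshold (0.13, 95% interval 0.01 to 0.25, adjusted p = 0.0847). Hnrnpab rose from 11439 and 11502 to 15844 and 15944 in the knockout, and from 14925 and 14891 to 18128 and 18792 with blockade. Hnrnpdl, which regulates its own splicing, moved in opposite directions. It had 4191 and 4195 in control and 3857 and 3993 in knockout libraries, a fall by 0.095 on the log2 scale (SE 0.029, limma adjusted p = 0.0311). Under blockade it went from 4859 and 4748 to 6137 and 5463, a rise of 0.27 (SE 0.056, adjusted p = 0.000372). The difference of its effects was -0.37 (95% interval -0.52 to -0.21, adjusted p = 0.00121). The fall in the knockout was not called when any single library was left out (adjusted p 0.0524 to 0.126), so it rests on all 4. Hnrnpd and Hnrnpdl lie 54.6 kb apart on chromosome 5.

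The hnRNP A and B proteins bind UAG-containing elements and silence exons, and the 4 genes behaved differently. Hnrnpa0 rose from 4142 and 4263 to 6156 and 6191 in the knockout (0.55, SE 0.027, limma adjusted p = 3.39e-05). With blockade its libraries overlapped, at 7894 and 8045 in untreated against 7907 and 8070 in blocked cells, a change of 0.0034 (95% interval -0.10 to 0.10). This was the largest positive difference between the 2 effects among the 31 genes, 0.55 (95% interval 0.44 to 0.66, adjusted p = 2.48e-06). Hnrnpa2b1 had 13676 and 13844 against 15091 and 14843 in the first experiment and 21260 and 21343 against 29295 and 25804 in the second. It rose in both, by 0.12 in the knockout and by 0.37 with blockade, and the effects differed by -0.25 (95% interval -0.40 to -0.09, adjusted p = 0.0134). Its knockout rise was not called without control replicate 1 or knockout replicate 1 (adjusted p 0.0593 and 0.0618), nor the difference without untreated replicate 1 (0.0543). Hnrnpa1, which opposes SR proteins at many exons, fell in the knockout, from 7812 and 7822 to 7035 and 6912 (-0.16, SE 0.024, adjusted p = 0.00183). With blockade it had 7992 and 8641 in untreated against 8016 and 7468 in blocked cells, which overlap, and it was not called (-0.10, adjusted p = 0.105), although without blocked library A it was called lower (adjusted p = 0.00029).

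Hnrnpa3 showed the widest spread within a group relative to its mean. Its values were 1626 and 1627 in control, 750 in knockout replicate 1 and 1553 in knockout replicate 2, so a single library carried the low mean. The log2 fold change of -0.59 (SE 0.31) was not called (limma adjusted p = 0.145). Without knockout replicate 2 it was -1.11 and was called (adjusted p = 0.0177), and without knockout replicate 1 it was -0.067. Under blockade it had 774 and 790 in untreated against 1151 and 943 in blocked cells (0.41, SE 0.079, adjusted p = 0.000176), a rise not called in a fit of all 8 libraries (adjusted p = 0.124). The difference between the effects was -1.004 (95% interval -1.69 to -0.32, adjusted p = 0.0224). Without knockout replicate 1 it shrank to -0.48 and was still called, while without either untreated library or blocked library A it was -1.02 to -0.86 and was not called (adjusted p 0.0665 to 0.0879), nor was it by DESeq2 (adjusted p = 0.174).

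Hnrnpa3 also has 39 near-identical copies, 37 of them processed pseudogenes, found by aligning its coding transcripts with those of other genes (at least 90% identity over at least 300 bases). In the knockout table these copies held more reads than the gene, with a sum of 6427 and 6401 in control and 6984 and 6840 in knockout libraries. The copies thus made up 79.8% and 79.7% of the joint sum in the control, 90.3% in knockout replicate 1 and 81.5% in replicate 2. The joint sum was 8053 and 8028 in control against 7734 and 8392 in knockout libraries (0.0029, SE 0.041, adjusted p = 0.956). The same 60 coding bases, 267 to 326 from the start codon, are printed for the gene and for the 3 copies with the highest values, because they show how little sequence tells a read of one from a read of another. Sequences are from GENCODE transcripts on GRCm38, 5′ to 3′, and capitals mark bases at which a copy differs from Hnrnpa3.
Hnrnpa3: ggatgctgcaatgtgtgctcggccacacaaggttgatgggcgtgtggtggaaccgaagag
Gm5641: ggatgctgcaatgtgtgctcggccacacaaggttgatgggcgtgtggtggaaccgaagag
Gm6254: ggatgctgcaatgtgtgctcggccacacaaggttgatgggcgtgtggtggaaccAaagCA
Gm11847: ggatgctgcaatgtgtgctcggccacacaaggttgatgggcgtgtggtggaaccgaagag

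Hnrnpa3 lies on chromosome 2 from 75659261 to 75669407, Gm5641 on chromosome 3 from 54481438 to 54482925, Gm6254 on chromosome 14 from 122117938 to 122119009 and Gm11847 on chromosome 4 from 12232833 to 12233951. Over the coding bases that aligned, Gm5641 had 0 differences in 1069 bases, Gm6254 had 5 in 1067 and Gm11847 had 1 in 1116. In all, 14 of the 31 genes had such copies. In the control libraries the copies made up 51.5% and 50.9% of the joint sum for Hnrnpf, 43.1% and 43.1% for Hnrnpa1, 24.0% and 24.5% for Srsf3, 18.2% and 17.6% for Hnrnph2, 16.2% and 16% for Srsf5, 15.6% and 15.3% for Hnrnpc and 14.2% and 14.0% for Hnrnpk. In the untreated libraries the copies of Hnrnpf made up 2.63% and 3.16% and those of Hnrnpa1 1.83% and 1.95%. The reads of these 14 genes are therefore uncertain in the knockout table, and why the tables divide them differently was not tested. With each gene summed with its copies, the other 13 kept their direction in both comparisons, and Hnrnpdl was no longer called in the knockout (adjusted p = 0.0523).

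**Figure D2:**
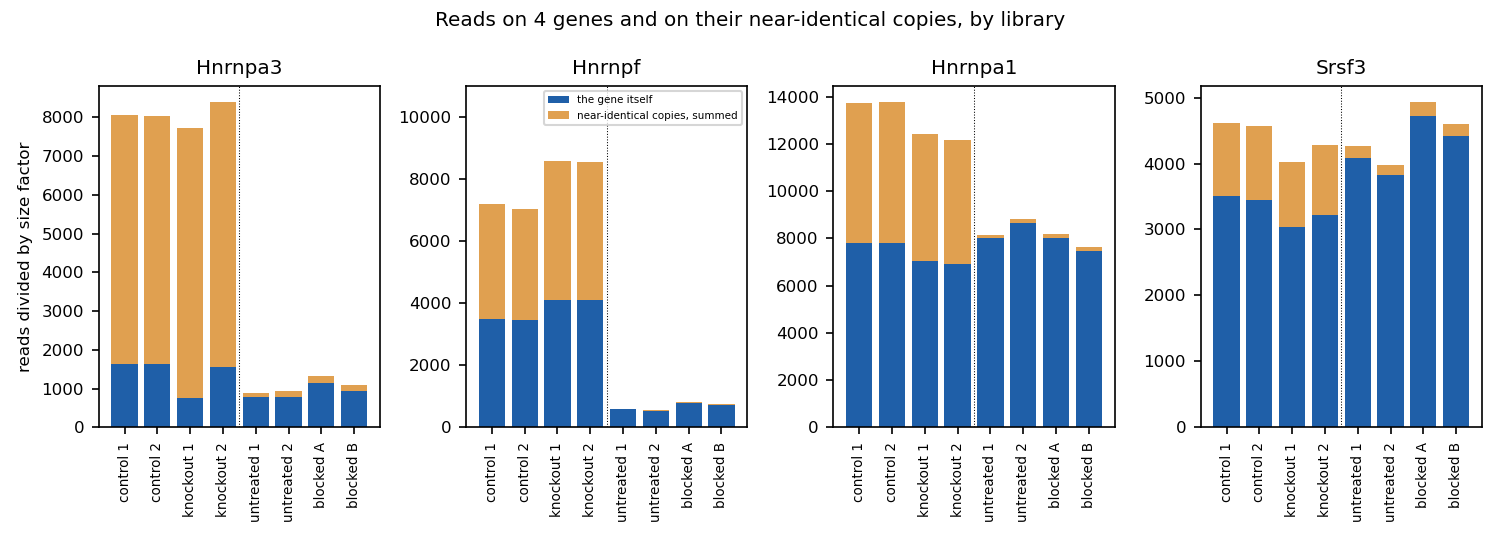
Normalised read counts of Hnrnpa3, Hnrnpf, Hnrnpa1 and Srsf3 (blue) with the summed counts of their near-identical copies stacked on top (orange), for the 8 libraries; the dotted line parts the 2 experiments, which were scaled separately. The low blue bar of Hnrnpa3 in knockout replicate 1 (750) has no counterpart in the joint height (7734), and the orange bars are small in the second experiment.

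The hnRNP F and H proteins bind G-rich runs near splice sites. Hnrnpf rose in both experiments, from 3494 and 3450 to 4118 and 4119 in the knockout and from 578 and 537 to 783 and 709 with blockade. Hnrnph1 fell in the knockout, from 8174 and 8218 to 6864 and 6787 (-0.26, SE 0.023, limma adjusted p = 0.000262). With blockade its values of 11932 and 10715 lay above the 10419 and 10426 of untreated cells, but it was not called (0.12, adjusted p = 0.0667). Without blocked library B it was called higher (0.20, adjusted p = 6.30e-07). The difference between the effects of Hnrnph1 was -0.38 (95% interval -0.52 to -0.24, adjusted p = 0.00046). Hnrnph2, from the X chromosome, was not called in either, with 894 and 900 against 897 and 865 and with 808 and 782 against 778 and 697. Hnrnph3 was called higher in both (0.29 and 0.22), though not by DESeq2 (adjusted p = 0.125 and 0.145). Nor was it called without knockout replicate 1 (0.27) or untreated replicate 1 (0.13). Rufy2, which overlaps Hnrnph3 on the opposite strand, held up to 65.7% as many reads. Whether reads were counted by strand is not given in the sources used here.

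Among the remaining hnRNP genes, Hnrnpc, whose protein binds uridine tracts in nascent transcripts and sorts them for export, fell in both experiments. It had 6660 and 6719 in control against 5343 and 5294 in knockout libraries (-0.33, SE 0.024, limma adjusted p = 0.000132), and 7067 and 6804 in untreated against 6085 and 5926 in blocked cells (-0.21, SE 0.049, adjusted p = 0.00121). It was the only hnRNP gene called lower in both, but its fall with blockade was not called without untreated replicate 1 (-0.18, adjusted p = 0.118). Hnrnpm, a regulator of alternative exons, went from 3502 and 3415 to 4468 and 4453 in the knockout and from 6161 and 6150.5 to 8961 and 8601 with blockade (0.51, SE 0.048). Hnrnpr had 1071 and 1068 against 1560 and 1498 in the first experiment and 1876 and 1927 against 2831 and 2469 in the second, rises of 0.51 (SE 0.037) and 0.48 (SE 0.062). Its close relative Syncrip, also called hnRNP Q, rose by 0.30 and 0.24. Hnrnpk, which binds cytidine tracts, rose by 0.25 and 0.23. Hnrnpu, a nuclear scaffold protein, rose by 0.17 and 0.18. With blockade neither Hnrnpk (adjusted p 0.0622 and 0.0955) nor Hnrnpu (0.217 and 0.201) was called without untreated replicate 1 or 2, and in the knockout Hnrnpu was not called without knockout replicate 1 (adjusted p = 0.0559). Its relatives Hnrnpul1 and Hnrnpul2 rose by 0.29 and 0.26 in the knockout and by 0.25 and 0.26 with blockade, where Hnrnpul1 was not called without untreated replicate 2 (adjusted p = 0.0590). None of the effects of Hnrnpr, Hnrnpk, Hnrnpu, Hnrnpul1 and Hnrnpul2 differed between the experiments at the threshold, and for Hnrnpul2 the difference was 0.00024 (95% interval -0.14 to 0.14).

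**Figure D3:**
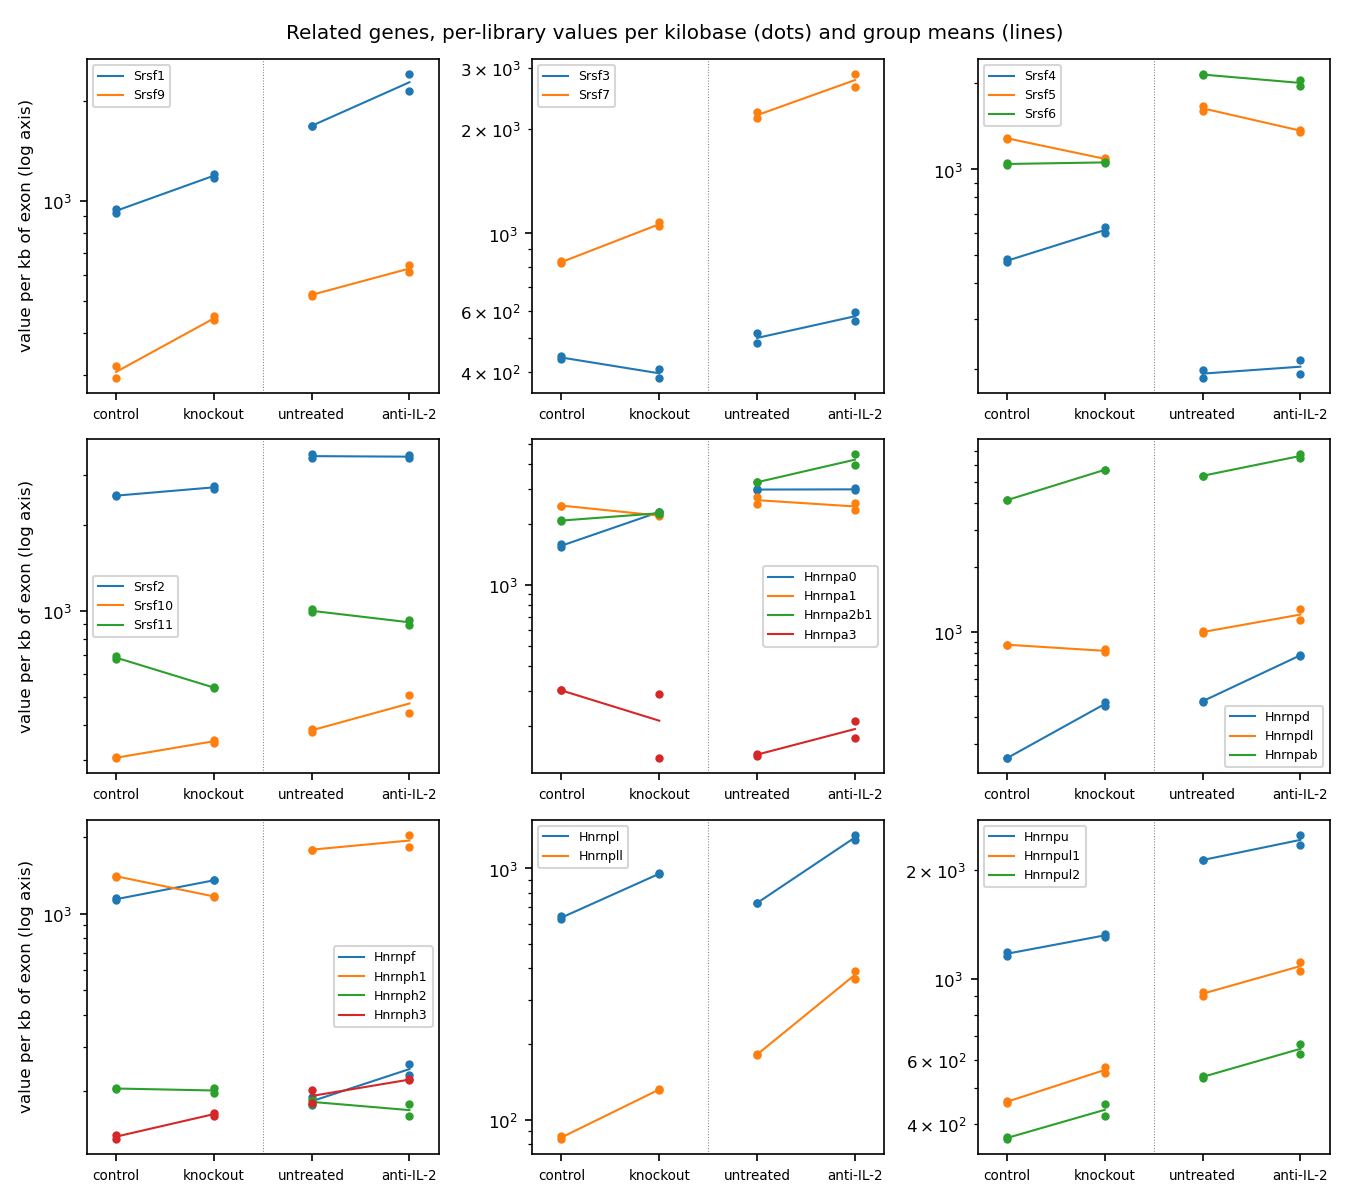
Normalised read counts per kilobase of exon, on log axes that differ between panels, for 9 sets of related genes in the 4 groups; dots are libraries, lines join group means within an experiment. Members of a set often moved unequally: Hnrnpd rose where Hnrnpdl fell, Srsf7 rose where Srsf3 fell in the knockout, and Hnrnpa0 rose in the knockout with no called change under anti-IL-2.

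Of the SR genes, Srsf1 and Srsf9, whose proteins share 2 RNA-binding domains and a short tail, rose in both experiments. Srsf1, a splicing activator with roles in T cell development and function, had 5259 and 5429 against 6735 and 6905 in the first experiment (0.35, SE 0.029, limma adjusted p = 0.000206) and 9659 and 9618 against 13827 and 12257 in the second (0.43, SE 0.055, adjusted p = 1.52e-06). Srsf9 had 486 and 526 in control and 743 and 723 in knockout libraries, the largest rise of an SR gene there (0.54, SE 0.054). With blockade it went from 859 and 868 to 1062 and 1012 (0.26, SE 0.064). Its rise in the knockout was larger than that under blockade by 0.27 (95% interval 0.10 to 0.45, adjusted p = 0.0166). This difference was not called without control replicate 1, knockout replicate 1 or untreated replicate 2 (adjusted p 0.0546 to 0.0782), nor by DESeq2 (adjusted p = 0.224).

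Srsf3 and Srsf7 encode small SR proteins that link splicing and polyadenylation to mRNA export. Srsf7 rose from 2959 and 2917 to 3733 and 3818 in the knockout (0.36, SE 0.028) and from 7929 and 7610 to 10213 and 9386 with blockade (0.33, SE 0.052). Srsf3 moved the opposite way in the knockout, from 3503 and 3448 to 3039 and 3222 (-0.15, SE 0.037, limma adjusted p = 0.0137), and rose with blockade, from 4087 and 3826 to 4713 and 4421 (0.21, SE 0.054, adjusted p = 0.00259). The groups did not overlap in either experiment, and the 2 effects of Srsf3 differed by -0.36 (95% interval -0.50 to -0.21, adjusted p = 0.00101). Its fall in the knockout was lost when either control library or knockout replicate 1 was left out (adjusted p 0.0706 to 0.0986), and its rise with blockade when untreated replicate 2 was (adjusted p = 0.166). Srsf7 lies 137.7 kb from Hnrnpll on chromosome 17.

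Srsf4, Srsf5 and Srsf6 form a set with long tails. Srsf5, an early responder to changes in growth conditions, fell in both experiments, from 5157 and 5100 to 4387 and 4303 (-0.24, SE 0.026, limma adjusted p = 0.000599) and from 6658 and 6399 to 5496 and 5410 (-0.26, SE 0.049, adjusted p = 0.000147). The 2 falls differed by 0.020 (95% interval -0.09 to 0.13), which was not called. Srsf4 rose in the knockout, from 1687 and 1725 to 2239 and 2131 (0.36, SE 0.037), while its blocked values of 768 and 686 overlapped the untreated 710 and 664. Its effects differed by 0.28 (95% interval 0.09 to 0.46, adjusted p = 0.0195), which was not called without control replicate 1, knockout replicate 1 or untreated replicate 1 (adjusted p 0.0614 to 0.0910), nor by DESeq2 (adjusted p = 0.122). A930004J17Rik, which overlaps Srsf4 on the same strand, reached up to 43.9% of its reads. Srsf6 was called in neither: it had 4970 and 5084 against 5119 and 5064 in the first experiment and 10395 and 10275 against 9925 and 9396 in the second.

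Srsf2, Srsf10, Srsf11 and Srsf12 complete the family. Srsf11, an SR-like protein of nuclear speckles, fell in both, from 5729 and 5868 to 4525 and 4584 (-0.35, SE 0.027, limma adjusted p = 0.000158) and from 8555 and 8355 to 7851 and 7561 (-0.13, SE 0.049, adjusted p = 0.0229). The second fall was not called without either untreated library (adjusted p 0.201 and 0.321). Srsf11 fell more in the knockout than under blockade, by -0.21 (95% interval -0.33 to -0.10, adjusted p = 0.00546). Srsf10, which acts as a general repressor when dephosphorylated after heat shock, rose by 0.19 and 0.31. Srsf2 had 7440 and 7540 against 7911 and 8108 in the first experiment (0.097, SE 0.025, adjusted p = 0.0187) and 10454 and 10146 against 10361 and 10149 in the second. Its call in the knockout was lost whenever a single library was left out. Srsf12, the least expressed, had 15.2 and 16.2 in control and 8.86 and 9.80 in knockout libraries (-0.69, SE 0.22, adjusted p = 0.0375), a few reads per library that pass the filter only through the control. It was not called without either control library or knockout replicate 1 (adjusted p 0.0587 to 0.0858), nor by edgeR (adjusted p = 0.0900) or DESeq2 (adjusted p = 0.501). With blockade it had 18.7 and 21.6 against 21.0 and 24.9 and was not called.

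Across the 2 experiments, which share no libraries, 17 of the 31 genes were called higher in both, 3 were lower in both and 2 moved in opposite directions. The background among the 12428 genes tested in both was 22.5% higher in both, 18.1% lower in both and 5.59% opposite. The 3 lower in both were Hnrnpc, Srsf5 and Srsf11, and the 2 that moved in opposite directions were Hnrnpdl and Srsf3. Over the 31 genes the effects had a Pearson r of 0.58 and a Spearman rho of 0.63, and over all 12428 genes r was 0.60 and rho 0.61, which is a description, since genes of a library are not independent. Without Hnrnpa3 and Srsf12, chosen after their values were seen, r was 0.74 over 29 genes. The difference between the effects was called for 13 genes, 4 of them higher and 9 lower, with 41.7% of all genes called. The share of the 31 called there, 41.9%, was near that background. By direction, 12.9% of the 31 were higher and 29.0% lower, against 24.7% and 17.0% of all genes. Among the 13 were Hnrnpab (0.16, limma adjusted p = 0.0171) and Hnrnpm (-0.15, limma adjusted p = 0.0394). Hnrnpab was not called by DESeq2 (adjusted p = 0.0790), nor Hnrnpm by limma without the filter on low values (adjusted p = 0.0559). With 1 library left out their differences were 0.14 to 0.19 and -0.17 to -0.12, and most such fits did not call them.

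**Figure D4:**
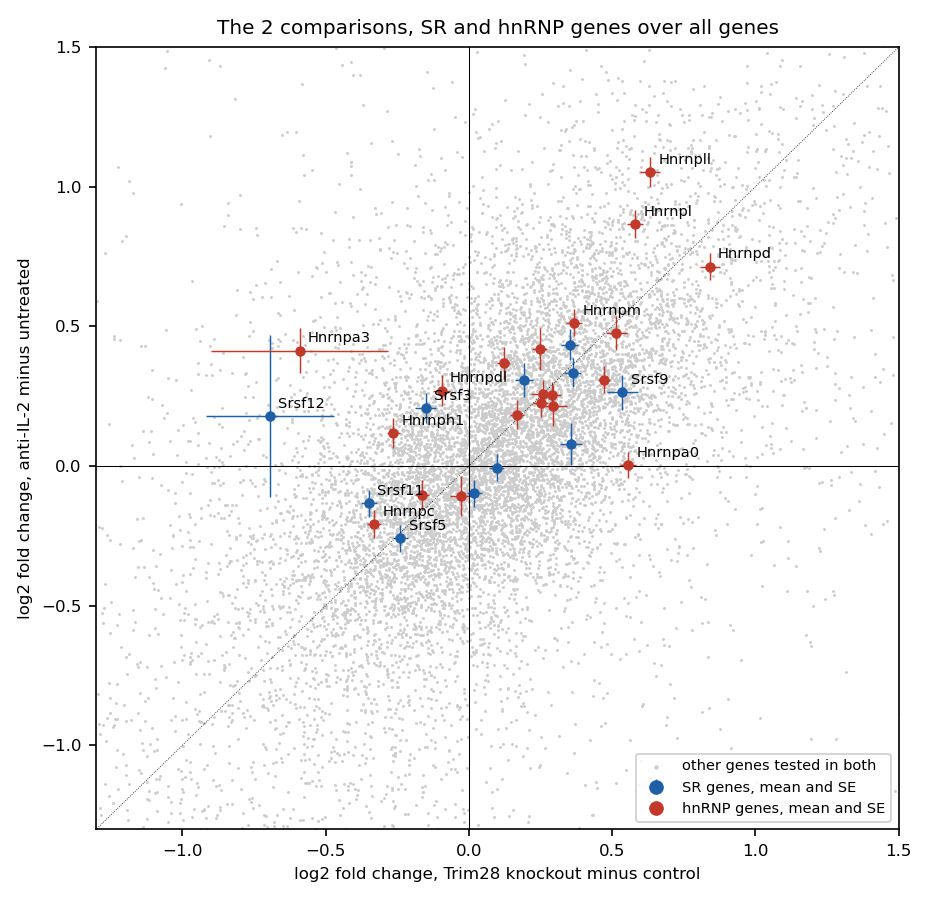
Log2 fold change under anti-IL-2 (y axis) against log2 fold change in the Trim28 knockout (x axis) for 11 SR genes (blue) and 20 hnRNP genes (red) with standard errors, over the genes tested in both (grey; those beyond the axes are not drawn); the dotted line marks equal effects. Hnrnpll, Hnrnpl and Hnrnpd stand at the upper right, Srsf5, Hnrnpc and Srsf11 at the lower left, and Hnrnpa3 and Srsf12, with wide errors in the knockout, at the left.

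Promoter windows from 250 bases before to 50 after the start of the gene were given by RefSeq (GRCm38.p6) for 29 of the 31 genes. Of 6 short motifs searched on both strands, CCAATC, the core of the CCAAT box, was in 12 of the 29 windows (41.4%), against 16.6% of all 27025 promoters and 21.8% of the 8928 promoters of genes tested in both experiments. TTTCCCGC, a common form of the E2F site, was in 3, those of Hnrnpul1, Srsf1 and Srsf10, against 1.11% of all promoters and 2.27% of those tested. The ETS motif CCGGAAG was in 6 (20.7%, against 9.12% of all and 19.8% of tested promoters), and the E-box CACGTG in 4, those of Hnrnpa3, Hnrnpd, Hnrnph2 and Hnrnpm (13.8%, against 7.24% and 10.6%). The STAT-type motif TTCCNGGAA was in 1, that of Hnrnpr, against 1.15% of all and 1.29% of tested promoters. TATAAA was in 4, those of Hnrnpab, Hnrnpm, Srsf2 and Srsf3 (13.8%, against 14.2% of all and 6.60% of tested promoters). Their GC content had a median of 68.3%, against 61.0% over promoters of tested genes. These matches are letters in a window and say nothing of binding.

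The 250 bases before the start are shown for the 2 genes with an entry that rose most in both experiments, Hnrnpd and Hnrnpl, and the 2 that fell most in both, Srsf5 and Hnrnpc, so that the sequence ahead of genes moving together can be compared. They read 5′ to 3′ on the strand of the gene, and capitals mark a motif of the set above. Hnrnpd is on the minus strand at chr5:99978939-99979188, Hnrnpl on the plus strand at chr7:28810640-28810889, Srsf5 on the plus strand at chr12:80945249-80945498 and Hnrnpc on the minus strand at chr14:52104022-52104271. The window of Hnrnpd holds CCGGAAG from 178 and CACGTG from 32 bases before the start. The window of Hnrnpl holds CCAATC from 165 bases before it, that of Srsf5 holds CCGGAAG from 90 and from 23 bases, and that of Hnrnpc holds CCAATC from 120 bases.
Hnrnpd: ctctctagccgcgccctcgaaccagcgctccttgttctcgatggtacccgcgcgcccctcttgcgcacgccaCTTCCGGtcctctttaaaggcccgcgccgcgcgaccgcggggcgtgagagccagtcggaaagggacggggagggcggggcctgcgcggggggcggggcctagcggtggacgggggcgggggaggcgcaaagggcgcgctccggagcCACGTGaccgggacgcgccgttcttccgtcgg
Hnrnpl: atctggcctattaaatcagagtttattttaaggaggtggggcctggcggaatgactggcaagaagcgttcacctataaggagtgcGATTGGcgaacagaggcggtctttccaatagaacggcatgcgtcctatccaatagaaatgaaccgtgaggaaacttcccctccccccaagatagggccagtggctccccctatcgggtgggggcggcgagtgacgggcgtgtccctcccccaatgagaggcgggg
Srsf5: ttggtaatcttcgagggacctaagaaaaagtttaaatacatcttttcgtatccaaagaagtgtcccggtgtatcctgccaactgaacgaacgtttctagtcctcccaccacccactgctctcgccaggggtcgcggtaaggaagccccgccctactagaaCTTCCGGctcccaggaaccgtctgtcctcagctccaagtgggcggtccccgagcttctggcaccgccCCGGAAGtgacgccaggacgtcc
Hnrnpc: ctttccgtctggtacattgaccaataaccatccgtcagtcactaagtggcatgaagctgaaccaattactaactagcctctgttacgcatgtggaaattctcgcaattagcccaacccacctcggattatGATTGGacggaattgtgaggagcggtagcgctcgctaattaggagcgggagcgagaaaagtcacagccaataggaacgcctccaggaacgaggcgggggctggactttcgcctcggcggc

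The other parts of the splicing machinery were described with lists of genes, in which counts stand beside the background given above (32.9% higher and 28.2% lower in the knockout, 31.4% and 28.9% with blockade). Among 10 tested kinases and phosphatase subunits that act on SR proteins, 3 rose and 7 fell in the knockout, and 3 rose and 4 fell with blockade. Clk2, a nuclear SR protein kinase, went from 839 ± 9.70 to 1191 ± 31.6 in the knockout (0.51, SE 0.039), and Clk1 fell from 3480 ± 18 to 3064 ± 27.9 (-0.18). Dyrk1a, a kinase of nuclear speckles, fell from 2715 ± 22.1 to 1949 ± 53.7 under blockade. Among 22 SR-related cofactors and speckle proteins the counts were 9 and 8 in the knockout and 8 and 6 with blockade. Tra2a, a cofactor that binds exonic enhancers with SR proteins, fell from 2792 ± 17.6 to 1837 ± 16.3 in the knockout (-0.60, SE 0.029). The direction of these 2 lists was therefore mixed.

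The 19 hnRNP proteins with other symbols went largely the way of the members, with 11 higher and 3 lower in the knockout and 9 and 1 with blockade. Dazap1 rose from 1779 ± 65.3 to 2866 ± 6.40 in the knockout (0.69, SE 0.036), and Tardbp, which encodes TDP-43, rose from 5397 ± 86.6 to 7598 ± 609 with blockade (0.49, SE 0.055). Of 22 other sequence-specific regulators, 6 rose and 10 fell in the knockout and 10 rose and 9 fell with blockade. Mbnl2, a muscleblind-like regulator, fell in both, from 1634 ± 58.9 to 713 ± 16.9 in the knockout (-1.20, SE 0.043) and from 1664 ± 35.4 to 708 ± 28.1 with blockade (-1.23, SE 0.062). Tia1, which promotes the use of weak splice donors, rose by 0.82 and 1.06.

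More proteins of the core spliceosome rose than fell. Of 26 proteins of the Sm ring and the U1 and U2 particles, 19 were higher and 3 lower in the knockout and 14 higher and 3 lower with blockade. Sf3a2 rose from 1796 ± 12.9 to 3175 ± 209 in the knockout (0.82, SE 0.048), and Sf3b3 from 6689 ± 136 to 9175 ± 149.6 with blockade (0.46, SE 0.048). Of 32 proteins of the U4/U6.U5 particle and the catalytic spliceosome, 16 were higher and 7 lower, then 17 higher and 2 lower, and Eftud2, a GTPase of the U5 particle, rose by 0.71 and 0.58. Of 22 mRNA export and polyadenylation genes, 16 were higher and 2 lower in each comparison. Cpsf3, the nuclease that cuts before polyadenylation, rose by 0.95 in the knockout and 0.82 with blockade. The exon junction complex and nonsense-mediated decay list was mixed, with 5 higher and 1 lower of 15, then 6 higher and 6 lower.

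The list of 10 genes whose splicing in T cells is known to be regulated, Ptprc among them, had more falls than rises. Of the 9 tested in the knockout, 4 rose and 5 fell, and of 10 tested with blockade 1 rose and 8 fell. Bcl2l1, whose splice forms favour or oppose cell death, rose from 6194 ± 11.9 to 10838 ± 73.0 in the knockout. Malt1, a signalling scaffold with an alternative exon, fell from 13406 ± 81.7 to 5289 ± 164 with blockade (-1.34, SE 0.048). These are gene totals, and isoforms were not measured.

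**Figure D5:**
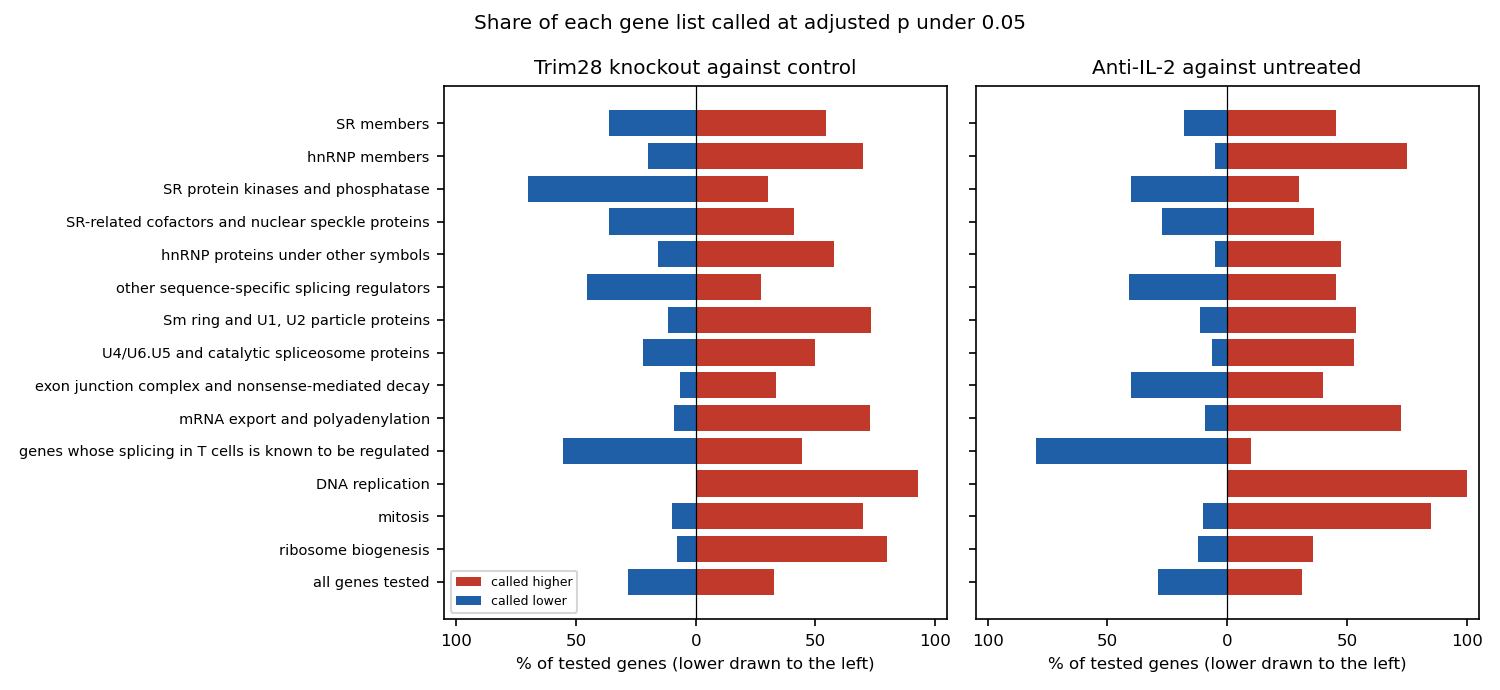
Share of the tested genes of each list called higher (to the right) or lower (to the left) at a limma adjusted p under 0.05, in the Trim28 knockout (left panel) and under anti-IL-2 (right panel), with all genes tested at the bottom. The hnRNP genes, the Sm, U1 and U2 proteins and the export and polyadenylation genes lean to the right in both panels, as DNA replication does.

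Other lists were counted beside the same background (32.9% higher and 28.2% lower in the knockout, 31.4% and 28.9% with blockade). Of 28 DNA replication genes, 26 rose in the knockout (median 0.60) and 28 rose with blockade (median 1.04), with 0 lower in both. Of 20 mitosis genes, 14 rose and 2 fell in the knockout, and 17 rose and 2 fell with blockade. Of 25 ribosome biogenesis genes, 20 rose and 2 fell in the knockout. With blockade 9 of them rose, 3 fell and 13 were not called, with a median of 0.075 against 0.018 over all genes. The mitochondrial share of reads fell from 2.11% and 2.03% to 1.52% and 1.52% in the knockout and from 2.72% and 2.69% to 2.40% and 2.53% with blockade. The 8 markers of NK and innate lymphocytes summed to 388 to 394 CPM (share of the library's reads) in control and 81.4 in both knockout libraries. In untreated libraries they summed to 463 to 464 and in blocked libraries to 71.0 to 79.4. Ncr1 was at 0 in all 4 groups, and Tyrobp in control and knockout libraries. Of the 4 tested, 1 was called higher and 3 lower in the knockout, and 0 and 4 with blockade. The 9 markers of B cells summed to 119 to 121 in control, 167 to 169 in knockout, 175 to 177 in untreated and 285 to 304 in blocked libraries. Of these, Ms4a1 was at 0 in the control, knockout and untreated libraries, and 4 of the 9 passed the minimum in the first experiment. Ighm and Ighd were called higher in both comparisons, by 0.46 and 2.04 in the knockout, where Cd79a and Cd79b were called lower, by -2.08 and -1.66. With blockade Cd79b was not called. The 9 CD8 T cell markers summed to 2743 to 2805 in control, 2861 to 2900 in knockout, 3643 to 3675 in untreated and 3047 to 3157 in blocked libraries. The 8 CD4 T cell markers summed to 501 to 513, 473 to 480, 230 to 241 and 192 in the same order, the 9 myeloid markers to 18.7 to 22.2, 11 to 12, 20.6 to 22.0 and 6.92 to 7.73, and the 10 erythroid and stromal markers to 24.7 to 40.2, 46.2 to 49.5, 32.2 to 35.6 and 70.1 to 70.9. Of the 9 CD8 T cell markers, 4 were called higher and 4 lower in the knockout, and 0 and 7 with blockade. For the 6 CD4 T cell markers tested the counts were 3 and 3, then 2 and 3. The part of these shifts in the results on splicing factors was not tested.

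In the authors' deposited table, all 31 genes had the same direction as here in both comparisons. The authors' deposited table called 20 higher and 6 lower in the knockout and 19 higher and 3 lower with blockade. Hnrnpdl and Srsf12 in the knockout and Hnrnph3 with blockade were called here and not in the authors' deposited table.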

How the data were processed

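Per the submitters' processing notes, reads were trimmed and aligned to mm10 by the authors with tools that include HISAT2 2.2.1, Trim Galore 0.4.4, StringTie 2.1.4 and DESeq2; how reads were counted and with which annotation is not given in the sources used here. The deposited values are a normalised signal, that is, the read count of a gene over the library's DESeq2 size factor, set separately for the 2 experiments. The authors also deposited log2 fold changes (reference over treated) and adjusted p-values, used only for comparison. Dividing by the value of 1 read gave whole reads for 100% of values (tolerance 0.001).

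Genes reaching 10 in 2 or more libraries were tested on log2(value + 1), a scale that understates changes of low genes, with limma 3.58.1 (mean-variance trend) in R 4.3.3. Benjamini-Hochberg adjustment ran over all genes tested, and calls needed an adjusted p under 0.05. The experiments had a fit each; for the difference of effects, 8 libraries and 12428 genes were fitted jointly. The design had set the fit without a replicate block, because the labels do not say whether a replicate number marks a shared mouse or day. In the first experiment the differences between replicates 1 and 2 of knockout and control had r = 0.013 over genes. This cannot decide whether libraries were paired, because much of such a difference is sampling noise. Alternatives were other pseudocounts, filters and scalings, protein-coding genes only, edgeR 4.0.16 and DESeq2 1.42.0 on recovered reads, leaving out each library, the block, a shared fit, and, chosen after seeing the data, each gene summed with its copies (BLAST+ 2.17.0, GENCODE on GRCm38). In simulated libraries like these, changes of 1.2-fold were called for 42% (knockout) and 46% (blockade) of 50 changed genes each, and changes of 1.5-fold for 90% and 86%.

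Members and lists were chosen with earlier results of these data known. Planned for a full description were the 8 called members with the largest change in each comparison and the 4 with the largest called difference. The sets of related genes and label checks were planned as well. Of these sets, Hnrnph3, Hnrnpu, Hnrnpul1, Hnrnpul2, Srsf10 and Syncrip are given in the text by log2 fold changes, without library values. For each list up to 3 genes with the smallest adjusted p were eligible, and Clk1 was named after its value was seen. The value of 1 cell type marker is not reported here.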

Additional observations from a re-analysis of the deposited data

Results flagged for a closer look

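Srsf3 and Hnrnpdl were singled out because their effects in the 2 experiments had opposite signs and the difference itself passed a test. Opposite calls in 2 of the 31 genes were near the background of 5.59% over the 12428 genes tested in both. For Srsf3 the knockout effect minus the blockade effect was -0.36 (SE 0.067, limma adjusted p = 0.00101): both knockout libraries lay below both control libraries, and both blocked libraries above both untreated ones. For Hnrnpdl it was -0.37 (SE 0.070, limma adjusted p = 0.00121), with the same arrangement. In the knockout, without the filter on low values, limma called neither the fall of Srsf3 (adjusted p = 0.0791) nor that of Hnrnpdl (adjusted p = 0.0720). Most fits that left out 1 library also lost the call of Srsf3 there, and all of them that of Hnrnpdl. Their knockout effects were then -0.19 to -0.11 and -0.12 to -0.071. The authors' deposited table called the fall of Srsf3 and not that of Hnrnpdl. The difference kept its call for both genes in all 8 fits that left out 1 library, from -0.41 to -0.31 for Srsf3 and from -0.45 to -0.28 for Hnrnpdl. Near-identical copies took 24.0% and 24.5% of the joint reads of Srsf3 in the control, and summing them gave -0.15 in the knockout and 0.21 with blockade.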

How the results depend on the processing

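The count of members called higher stayed within 1.5 times in all alternatives, from 16 to 20 in the knockout and from 14 to 21 with blockade. Leaving out 1 library gave 5 to 8 members lower in the knockout (5 without either control library or knockout replicate 1), a median of 0.20 to 0.25, 1 to 6 lower with blockade (1 without untreated replicate 1, 6 without blocked library A), and 1 to 6 higher for the difference. The members' median in the knockout was 0.17 with upper-quartile scaling, 0.21 with edgeR and 0.21 with DESeq2. With blockade, upper-quartile scaling gave a median of 0.20 and 5 lower, and for the difference DESeq2 gave 1 higher. Of all genes, DESeq2 called 5506 in the knockout against 9409, and 3203 against 5185 for the difference, and without knockout replicate 1 or 2 there were 5999 and 6058. Upper-quartile scaling moved the share of higher calls in the knockout from 53.8% to 44.5%. With the replicate block 19 members were higher and 7 lower, Hnrnpa3 was called lower (adjusted p = 0.0440), and Hnrnpdl, Srsf12 and Srsf2 were not called. Signs turned for members not called in that comparison. In the knockout these were Srsf6 (-0.060 with upper-quartile scaling, -0.015 with edgeR, -0.016 with DESeq2), Hnrnph2 (-0.053 to 0.00038 with 1 library left out) and Hnrnpa3 (0.0029 with copies). With blockade they were Srsf2 (0.00083 with TMM, -0.028 to 0.015 with 1 library left out), Hnrnpa0 (-0.050 with upper-quartile scaling, -0.010 with edgeR, -0.017 with DESeq2, -0.011 to 0.018 with 1 left out) and Srsf4 (-0.0021 to 0.16 with 1 left out). For the second experiment no paired analysis was possible because the blocked columns carry no replicate numbers. The causes were not tested. In the simulated libraries, where few genes changed, changes of 1.2-fold often went uncalled. That rate need not hold here.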
